A study of Mus musculus with 12 samples.

Results

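The 10 genes described here encode transcription factors linked to axon regeneration: Sox11, Sox4, Atf3, Jun, Klf4, Klf9, Klf6, Klf7, Stat3 and Myc. They were chosen by name, each was matched to its Ensembl identifier, and they are 10 of the 54232 genes in the count table. RNA was measured in 12 libraries, each a small pool of fluorescent cells picked from the retina of wild-type, adult, male animals. All eyes carried an adeno-associated virus (AAV) and had an optic nerve crush (ONC), which cuts the axons of retinal ganglion cells. The 4 groups of 3 libraries were AAV-Olig1 at 14 days after ONC (Olig1 day 14), AAV-GFP at 14 days (GFP day 14), AAV-Olig1 at 7 days (Olig1 day 7) and AAV-GFP at 7 days (GFP day 7). Olig1 encodes a basic helix-loop-helix factor of the oligodendrocyte lineage, and green fluorescent protein (GFP) served as the control cargo. All 12 libraries carry the same virus time, 14 days, at 7 and at 14 days after ONC. Either the virus was given at a different time relative to ONC in the day 7 and day 14 groups, or the label is a constant. Day after ONC and timing of the virus can therefore not be told apart in the comparisons between the days. The cells came from a CD90.2 bead separation and were pooled, so that cells of different types within a library cannot be separated. Whether replicates are separate animals is not stated, so the p-values reflect variation among libraries that may be partly technical.

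Injured neurons that regrow an axon switch on a set of transcription factors. In the dual leucine zipper kinase (DLK) to JUN N-terminal kinase (JNK) pathway, axon damage leads to phosphorylation of JUN and induction of Atf3, and the SoxC factors SOX4 and SOX11 drive growth genes in developing neurons and after injury. Klf4 and Klf9 restrain axon growth of retinal ganglion cells and Klf6 and Klf7 promote it, STAT3 carries the signal of cytokines that act through the gp130 receptor and is held back by SOCS3, and Myc drives cell growth.

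Levels are given in CPM, a library's counts scaled to a common total. Olig1 itself matched the virus labels in all 12 libraries, with 56.4 to 520 CPM at Olig1 day 14 against 0 to 0.251 at GFP day 14, and 249 to 1029 at Olig1 day 7 against 0 to 0.351 at GFP day 7. Libraries held 12534515 to 27602459 counts, and the limit set by 0 counts was 0.109 to 0.239 CPM by library (3 counts, counting error only). The cell type label was less well borne out. The 12 ganglion cell markers summed to 112, 2571 and 102 CPM in Olig1 day 14 replicates 1, 2 and 3, against 56.1, 33.2 and 58.1 CPM at GFP day 14. They summed to 1176, 3057 and 1712 CPM at Olig1 day 7, against 24.1, 252 and 30.0 CPM at GFP day 7. Of the 12 markers, 5 to 8 were detected per library at GFP day 14 and 7 to 10 at Olig1 day 14. At day 7 the numbers were 6 to 7 for GFP and 10 to 11 for Olig1. Pou4f3 was at 0 in all libraries, and Slc17a6, Pou4f1 and Pou4f2 had 0 counts at GFP day 14. Markers of Müller glia, the radial glia of the retina, summed to at least 46848 CPM in every library. The pools are therefore called by virus and day below, not as ganglion cells. GFP day 14 replicate 1 had the fewest genes detected (10129), and GFP day 14 replicate 3 held 132547 CPM of plasma and B cell markers. Microglia and macrophage markers summed to 904 CPM or more in 4 libraries (GFP day 14 replicates 2 and 3, and replicate 3 of both day 7 groups) and to at most 33.5 CPM in the rest. In such pools, fewer cells of a type and less RNA per cell cannot be told apart.

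Sequences upstream of the transcription start are shown for Sox11, Jun, Atf3 and Klf6, the 4 factors with the highest level per length at Olig1 day 7. They are from RefSeq (GRCm38.p6), 5′ to 3′ on the gene's strand, 100 bases each, with the motif match in capitals. They end at the base before the RefSeq start except for Klf6, whose stretch ends 66 bases before it. The gene spans given below are from GENCODE M21 and need not begin at that start. The Atf3 stretch lies inside its span, and the Sox11 stretch lies upstream of its span without adjoining it. The motif is TGACNTCA, an octamer close to the sites of ATF and CREB proteins, for Sox11, Jun and Klf6, and ACGTCA, the core of a cyclic AMP response element, for Atf3. The Sox11 match lies on the opposite strand, so it is printed as the reverse complement, TGATGTCA.
Sox11 (chr12:27342719-27342818, minus strand): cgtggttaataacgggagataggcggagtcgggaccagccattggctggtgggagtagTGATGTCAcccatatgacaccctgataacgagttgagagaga
Jun (chr4:95052223-95052322, minus strand): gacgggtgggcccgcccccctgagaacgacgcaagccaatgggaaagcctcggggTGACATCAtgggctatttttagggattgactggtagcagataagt
Atf3 (chr1:191183334-191183433, minus strand): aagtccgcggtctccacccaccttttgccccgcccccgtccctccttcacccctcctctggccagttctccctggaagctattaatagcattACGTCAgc
Klf6 (chr13:5861324-5861423, plus strand): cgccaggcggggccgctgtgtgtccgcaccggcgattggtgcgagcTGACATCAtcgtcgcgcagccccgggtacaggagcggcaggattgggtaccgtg
Both strands of the 250 bases before the start were searched, for 9 of the 10 factors, those with an entry. TGACNTCA was found in 4 of the 9 (Sox11, Sox4, Jun and Klf6) and in 7.59% of 27025 promoters. ACGTCA was found in 2 (Atf3 and Klf9) and in 6.56% of all promoters. The AP-1 motif TGANTCA matched Klf9 alone (6.87% of all), the STAT motif TTCNNNGAA also matched Klf9 alone (7.18%), and the E-box CACGTG matched Klf4 and Klf6 (6.05%). No TGACNTCA match in these promoters overlapped an ACGTCA match. The motifs were chosen after the sequences had been read, and a match describes letters in the window, not a bound site.

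Of the factors, Sox11 differed most between libraries. This SoxC factor of developing neurons (ENSMUSG00000063632, chr12:27334264-27342574, minus strand) had 0 counts in all 3 Olig1 day 14 libraries, against 0.941, 0.362 and 0.752 CPM at GFP day 14. It had 181, 251 and 51.0 CPM in Olig1 day 7 replicates 1, 2 and 3, against 1.92, 0.109 and 11.8 CPM at GFP day 7. Every Olig1 day 7 library lay above every other library of the series, and the lowest of them was replicate 3. Within the Olig1 pools Sox11 was lower in the day 14 group, with 0 counts at day 14 against 7222 pooled counts at day 7. That is at least 3369-fold lower (floor of 3 counts over the group, counting error only). edgeR's quasi-likelihood test called this difference at an adjusted p of 0.0282, and Sox11 was the only factor called in any of the 6 comparisons. The call covered 0.0334% of the 14985 genes tested in that comparison, either direction, with 0.0267% lower and 0.00667% higher. The call ended when any of 5 libraries was left out: the adjusted p was 0.119, 0.166 and 0.187 without Olig1 day 14 replicate 1, 2 or 3 (the bound was 2076-fold lower without replicate 2), and 0.0514 and 0.175 without Olig1 day 7 replicate 1 or 2. It also ended with DESeq2's size factors (0.0648), with a stricter filter on low counts (0.0514) and with only the compared groups in the fit (0.0527), and the DESeq2 Wald test (1.5e-13) and limma voom (0.00353) called it too. Cell markers differed between the same groups. Horizontal cell markers summed to 4799 to 16191 CPM at Olig1 day 14 against 236 to 512 CPM at Olig1 day 7. Rod markers summed to 827 to 10381 CPM against 537 to 735 CPM, and ganglion cell markers to 102 to 2571 CPM against 1176 to 3057 CPM. The part of these in the Sox11 difference was not tested.

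Between the viruses, Sox11 did not pass the adjusted threshold of the main edgeR fit on either day. The DESeq2 Wald test called it at day 7 and day 14 (adjusted p = 0.000478 and 0.01), against 6.37% and 4.96% of all genes. So did edgeR with no filter (0.00258 and 0.0233), while limma voom called it on neither day (0.0627 and 0.514). At day 7 the fitted log2 fold change, Olig1 over GFP, was 5.62 ± 1.42 (SE, 3 libraries a group, adjusted p = 0.149, edgeR), with means of 161 ± 101 CPM against 4.60 ± 6.27 CPM (SD). It was 7.81 without GFP day 7 replicate 3, which held 201 of the 239 GFP counts, and 4.61 without Olig1 day 7 replicate 2. At day 14 the pooled counts were 0 against 52, at least 14.4-fold lower, with an adjusted p of 0.438. The difference between the days of this Olig1 effect had the fourth smallest p of all genes tested, 0.000102 unadjusted and 0.341 after adjustment. At day 7 marker sums of several retinal neurons also differed between the viruses, not all in the direction of Sox11 and Jun. Amacrine cell markers summed to 1281 to 3107 CPM at Olig1 day 7 against 285 to 651 CPM at GFP day 7, above it like the ganglion cell markers. Rod markers summed to 537 to 735 CPM against 9955 to 51456 CPM, cone markers to 20.6 to 109 CPM against 1404 to 1941 CPM, and bipolar cell markers to 234 to 515 CPM against 1081 to 1995 CPM. The part of these in the differences of Sox11 and Jun was not tested. Olig1 day 14 replicate 2 had 2571 CPM of ganglion cell markers and 0 Sox11 counts.

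**Figure D1:**
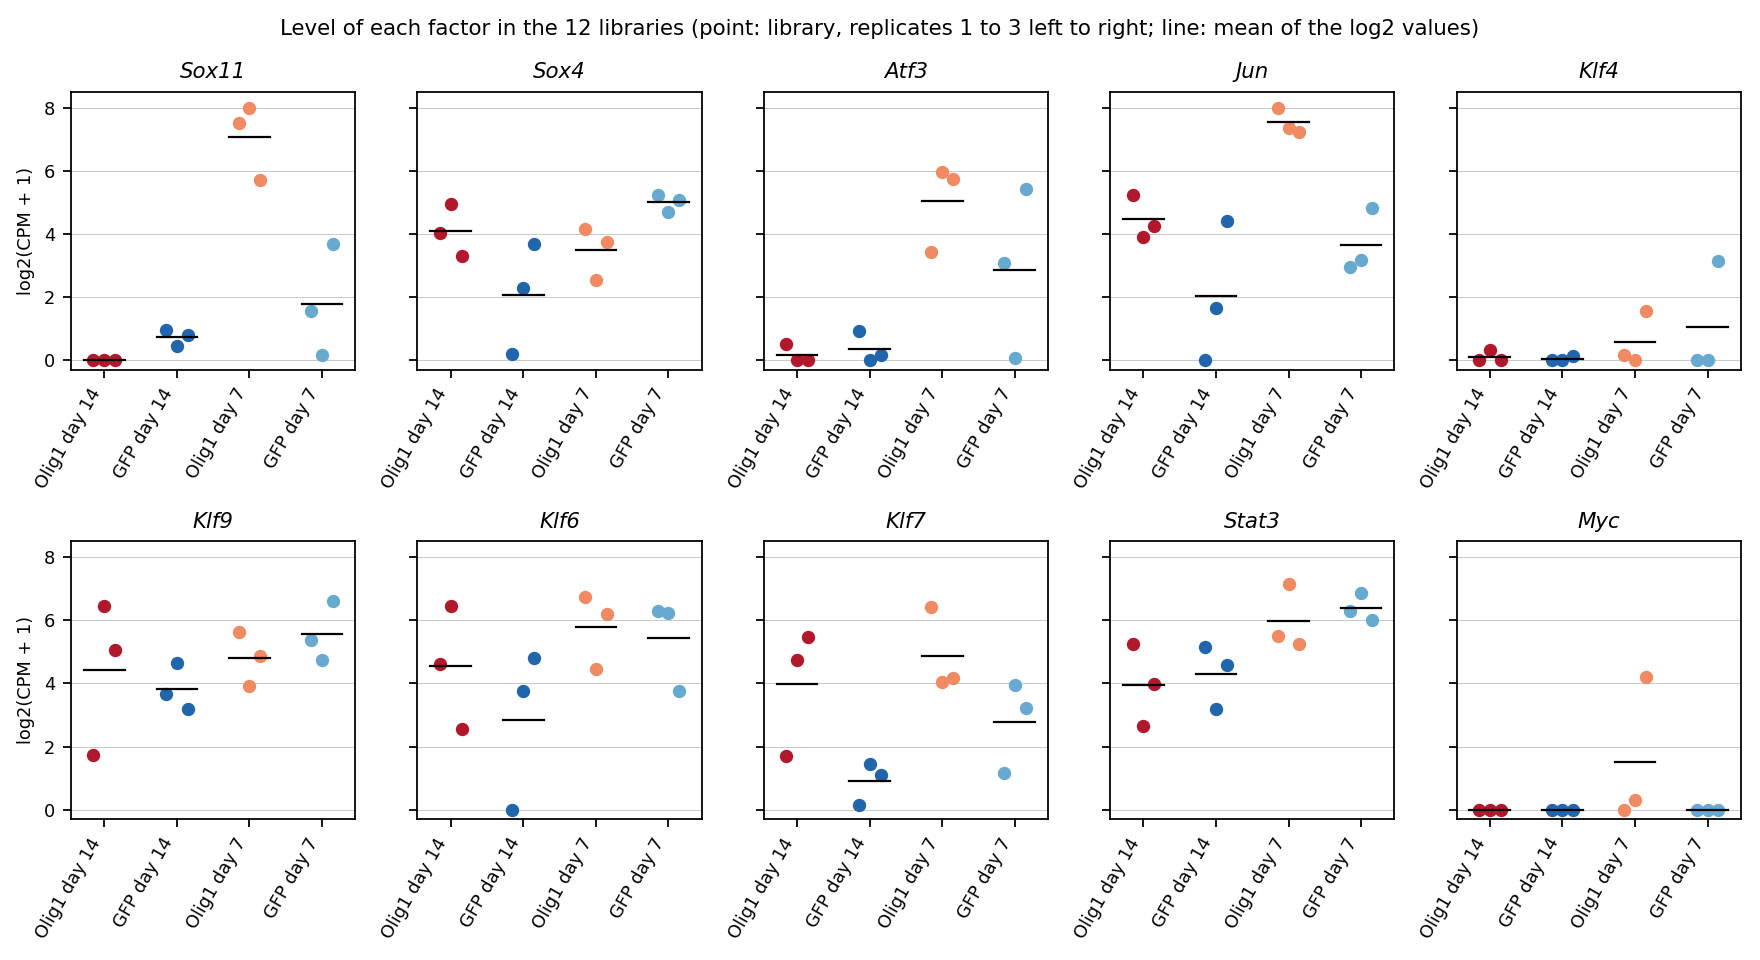
Level of each factor in each library, as log2(CPM + 1), with 3 points a group and a line at the mean of the log2 values. Sox11 and Jun stand above all other libraries at Olig1 day 7, and Myc is above 0 in 2 libraries.

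Sox4, the other SoxC member (chr13:28948919-28953713), ran differently. It had 15.2, 29.5 and 8.78 CPM at Olig1 day 14, against 0.157, 3.91 and 11.8 CPM at GFP day 14. It had 17.0, 4.87 and 12.4 CPM at Olig1 day 7, against 36.5, 24.7 and 32.8 CPM at GFP day 7. At day 7 all Olig1 libraries lay below all GFP libraries, and at day 14 the groups overlapped. Neither difference passed the test: the log2 fold change was 1.50 ± 1.36 at day 14 (adjusted p = 0.910, edgeR) and -1.37 ± 1.36 at day 7 (adjusted p = 0.731). Per length, Sox11 averaged 47.4 ± 30.3 TPM (CPM corrected for exon length and rescaled) at Olig1 day 7 and Sox4 5.81 ± 3.62, while at GFP day 7 Sox11 averaged 1.40 ± 1.90 TPM and Sox4 16.5 ± 3.79 (SD, n = 3).

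Of 9 other Sox factors, 6 were tested and 0 were called by edgeR in any comparison. Between the viruses 1 had an unadjusted p under 0.05 on each day, against 10.4% of all genes at day 14 and 13.9% at day 7. The DESeq2 Wald test (3.52% to 7.69% of all genes called, by comparison) called Sox2 and Sox6, each in at least 1 comparison, and voom called Sox2. Sox6 averaged 2.00 ± 1.49 CPM at Olig1 day 14 against 24.8 ± 16.1 CPM at GFP day 14 (adjusted p = 0.438, edgeR). Sox12, another SoxC gene, averaged 9.01 ± 3.83 CPM at Olig1 day 14 against 0.293 ± 0.222 CPM at GFP day 14 (adjusted p = 0.633), with no overlap. At day 7 the smallest p values belonged to genes of glia and progenitors. Sox2 averaged 6.93 ± 9.93 CPM at Olig1 day 7 against 68.5 ± 26.5 CPM at GFP day 7 (adjusted p = 0.262), and Sox9 60.7 ± 19.9 CPM against 159 ± 27.8 CPM (adjusted p = 0.446). At day 7 the Olig1 libraries lay below the GFP libraries for both genes.

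Jun and Atf3 are the injury-response members, both leucine zipper factors that can bind DNA as dimers. Jun (ENSMUSG00000052684, chr4:95049034-95052222, minus strand) had 36.6, 13.9 and 18.1 CPM at Olig1 day 14, against 0, 2.14 and 20.3 CPM at GFP day 14. It had 252, 163 and 150.05 CPM at Olig1 day 7, against 6.77, 8.10 and 27.0 CPM at GFP day 7. All 3 Olig1 day 7 libraries lay above the rest of the series, while the day 14 groups overlapped through GFP day 14 replicate 3. The log2 fold change at day 7 was 3.99 ± 1.48 (unadjusted p = 0.0161, adjusted p = 0.274, edgeR), and over the mean of both days it was 2.63 ± 0.98 (adjusted p = 0.210). At day 14 it was 1.27 ± 1.33 (adjusted p = 0.951). By the DESeq2 Wald test and by limma voom the day 7 difference passed (adjusted p = 0.0417 and 0.0465), against 6.37% and 2.87% of all genes. No other alternative called it. Within the Olig1 pools, day 14 over day 7 gave -2.97 ± 1.41 (adjusted p = 0.427), with no overlap. GFP day 14 replicate 1, the library with the fewest genes detected, had 0 Jun counts. The day 14 log2 fold change was 0.68 without that library and 4.51 without GFP day 14 replicate 3 (adjusted p = 0.999 and 0.512, edgeR). Jun shares 232 exon bases with the antisense gene Junos, which had 192 counts over all libraries, and the strand setting of the counting is not given in the sources used here.

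Atf3 (ENSMUSG00000026628, chr1:191170296-191218039, minus strand) was nearly absent at day 14 in both arms. It had 0.436, 0 and 0 CPM at Olig1 day 14, against 0.902, 0 and 0.125 CPM at GFP day 14. It had 9.73, 60.8 and 52.2 CPM at Olig1 day 7, against 7.41, 0.0547 and 42.3 CPM at GFP day 7. The day 7 groups overlapped, and replicate 3 was high in both arms. Day 14 over day 7 gave -8.20 ± 2.63 on the log2 scale within the Olig1 pools (unadjusted p = 0.00686, adjusted p = 0.371) and -5.31 ± 2.30 within the GFP pools (unadjusted p = 0.0354, adjusted p = 0.453). The pooled counts were 9 against 1714 in the Olig1 pools, a ratio of 0.00375 (95% counting interval 0.00171 to 0.00714). That interval leaves out the variation between libraries, and all 9 counts were in Olig1 day 14 replicate 1. By the DESeq2 Wald test and by limma voom the Olig1 difference passed, with adjusted p of 0.000911 and 0.0483. Between the viruses the log2 fold change was -1.12 ± 2.00 at day 14 and 1.78 ± 1.97 at day 7, with an adjusted p of 1 and 0.771 (edgeR).

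Of 19 other AP-1, ATF and C/EBP genes, 17 were tested and 0 were called by edgeR in any comparison. Between the viruses 1 at day 14 (10.4% of all genes) and 3 at day 7 (13.9% of all) had an unadjusted p under 0.05. The DESeq2 Wald test (3.52% to 7.69% of all genes called, by comparison) called Fosb, Ddit3, Fos and Fosl1, each in at least 1 comparison, and voom called 0. Fosb, an AP-1 partner of JUN, had 383 pooled counts at Olig1 day 14 against 0 at GFP day 14, at least 154-fold higher (adjusted p = 0.438, edgeR). Cebpd averaged 45.6 ± 30.3 CPM at Olig1 day 14 against 108 ± 63.9 CPM at GFP day 14 (adjusted p = 0.675). Ddit3, which encodes the stress factor CHOP, averaged 728 ± 776 CPM at Olig1 day 7 against 73.7 ± 53.7 CPM at GFP day 7 (log2 fold change 3.97 ± 0.92, adjusted p = 0.0975, edgeR). Its groups did not overlap, but the level at Olig1 day 7 was uneven. Cebpb averaged 106 ± 146 CPM at Olig1 day 7 against 21.2 ± 9.19 CPM at GFP day 7 (adjusted p = 0.282).

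All 9 genes of the DLK and JNK kinase list were tested, and edgeR, DESeq2 and voom called 0 in any comparison, with 0 at an unadjusted p under 0.05. Of all genes tested, edgeR called 0% to 0.654% and DESeq2 3.52% to 7.69%, by comparison. The share at an unadjusted p under 0.05 (edgeR) was 9.9% to 14.9%. Voom called 2.87% between the viruses at day 7 and 2.09% between the days in the Olig1 pools. Map2k4, a JNK-activating kinase, averaged 5.29 ± 6.26 CPM at Olig1 day 14 against 43.7 ± 55.8 CPM at GFP day 14. Mapk8ip1, a JNK scaffold, averaged 13.7 ± 13.0 CPM against 1.19 ± 1.97 CPM on the same day. At day 7 the 2 smallest p values belonged to Mapk10, which encodes JNK3, with 71.6 ± 53.5 CPM at Olig1 against 38.1 ± 18.1 CPM at GFP, and to the scaffold Mapk8ip3, with 43.3 ± 41.6 CPM against 20.0 ± 27.2 CPM. The groups overlapped for all 4 genes, so the spread within a group was as wide as the difference.

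**Figure D2:**
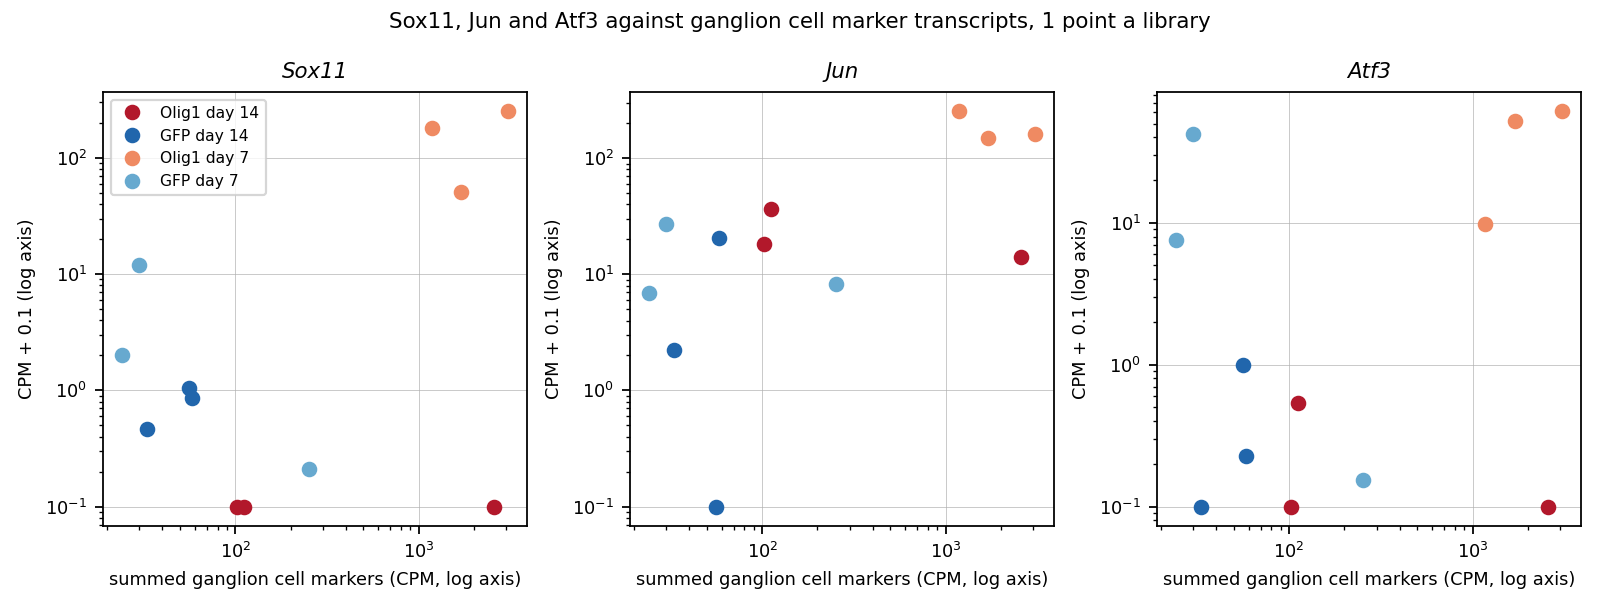
Level of Sox11, Jun and Atf3 (CPM + 0.1, log axis) against the summed ganglion cell markers (CPM, log axis), with 1 point a library. The 3 Olig1 day 7 libraries lie at 1176 to 3057 CPM of markers and high Sox11 and Jun, while Olig1 day 14 replicate 2 has 2571 CPM of markers, 0 Sox11 counts and 13.9 CPM of Jun.

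Among the growth-restraining Krüppel-like factors, Klf4 was too low to test. It had 0, 0.244 and 0 CPM at Olig1 day 14, against 0, 0 and 0.0835 CPM at GFP day 14, and 0.109, 0 and 1.96 CPM at Olig1 day 7, against 0, 0 and 7.78 CPM at GFP day 7. Replicate 3 of each day 7 group exceeded 1 CPM and no other library did. They also held 904 CPM (Olig1) and 1073 CPM (GFP) of microglia and macrophage markers, against 1.86 to 33.5 CPM in the other day 7 libraries, and the part of those markers was not tested. GFP day 14 replicates 2 and 3 had 4524 and 6132 CPM of the same markers with 0 and 2 Klf4 counts.

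Klf9 (chr19:23141226-23168134), induced by thyroid hormone and glucocorticoids in neurons, was counted in all 12 libraries. It had 2.33, 86.2 and 32.6 CPM at Olig1 day 14, against 11.7, 23.9 and 8.14 CPM at GFP day 14. It had 48.1, 14.0 and 28.5 CPM at Olig1 day 7, against 40.9, 25.7 and 96.3 CPM at GFP day 7. The virus groups overlapped on both days, and the log2 fold change was 1.52 ± 1.04 at day 14 and -0.73 ± 1.02 at day 7 (adjusted p = 0.774 and 0.838, edgeR). Within the GFP pools all day 14 libraries lay below all day 7 libraries, at -1.59 ± 1.04 (adjusted p = 0.702).

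Of the growth-promoting pair, Klf7 showed the more regular pattern. Klf7 (ENSMUSG00000025959, chr1:64029447-64122282, minus strand) had 2.28, 25.7 and 43.6 CPM at Olig1 day 14, against 0.118, 1.70 and 1.13 CPM at GFP day 14. It had 84.0, 15.6 and 17.0 CPM at Olig1 day 7, against 1.23, 14.6 and 8.31 CPM at GFP day 7. The Olig1 libraries lay above the GFP libraries on both days, by a narrow margin: 2.28 against 1.70 CPM at day 14 and 15.6 against 14.6 CPM at day 7 for the nearest libraries. The log2 fold change was 4.50 ± 1.60 at day 14 (unadjusted p = 0.0130, adjusted p = 0.438, edgeR), 2.24 ± 1.45 at day 7 (adjusted p = 0.528) and 3.37 ± 1.08 over the mean of both days (unadjusted p = 0.00660, adjusted p = 0.145). The DESeq2 Wald test called Klf7 at day 14 (adjusted p = 0.0111) and over both days (0.00332). The ganglion marker sums were above those of the GFP libraries in every Olig1 library of the same day, and their part was not tested.

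Klf6 (chr13:5861482-5870394) varied as much within groups as between them. It had 23.3, 87.2 and 4.89 CPM at Olig1 day 14, against 0, 12.6 and 26.7 CPM at GFP day 14. It had 105, 20.7 and 71.8 CPM at Olig1 day 7, against 76.9, 73.5 and 12.7 CPM at GFP day 7. The groups overlapped in every comparison, with log2 fold changes of 1.34 ± 1.47 at day 14 and 0.28 ± 1.44 at day 7 (adjusted p = 0.959 and 0.973, edgeR). Per length, Klf6 averaged 36.9 ± 27.1 TPM and Klf7 12.3 ± 13.6 TPM at Olig1 day 7 (SD, n = 3).

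Of 13 other Klf and Sp genes, 11 were tested and 0 were called by edgeR in any comparison. Between the viruses 0 at day 14 (10.4% of all genes) and 3 at day 7 (13.9% of all) had an unadjusted p under 0.05. DESeq2 (3.52% to 7.69% of all genes called, by comparison) called Klf3 and Klf2, each in at least 1 comparison, and voom called 0. Klf10, a TGF-beta early response gene, averaged 243 ± 388 CPM at Olig1 day 7 against 5.41 ± 4.61 CPM at GFP day 7 (log2 fold change 6.24 ± 1.88, adjusted p = 0.229). Klf3 averaged 1.60 ± 1.54 CPM at Olig1 day 7 against 42.4 ± 17.2 CPM at GFP day 7 (log2 fold change -4.70 ± 1.61, adjusted p = 0.261). The groups did not overlap for either gene, and Klf10 was very uneven among the Olig1 libraries. At day 14 the smallest p values were those of Klf2, with 0.337 ± 0.366 CPM at Olig1 against 4.81 ± 4.19 CPM at GFP, and Sp1, with 3.18 ± 3.29 CPM against 17.4 ± 12.1 CPM (adjusted p = 0.778 and 0.798).

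Stat3 (ENSMUSG00000004040, chr11:100885098-100939540, minus strand) had fitted values near 0 between the viruses on both days. It had 36.7, 5.25 and 14.7 CPM at Olig1 day 14, against 34.3, 8.22 and 23.0 CPM at GFP day 14. It had 44.6, 142 and 36.9 CPM at Olig1 day 7, against 76.8, 115 and 63.7 CPM at GFP day 7. The virus groups overlapped on both days, and in each arm all day 14 libraries lay below all day 7 libraries, in the Olig1 arm by 36.7 against 36.9 CPM. The log2 fold change between the viruses was -0.26 ± 0.91 at day 14 and 0.28 ± 0.91 at day 7 (adjusted p = 1 and 0.951, edgeR), an error that leaves room for changes of either sign. Day 14 over day 7 gave -2.21 ± 0.95 within the Olig1 pools (unadjusted p = 0.0343, adjusted p = 0.405) and -1.67 ± 0.93 within the GFP pools (adjusted p = 0.597). Stat3 shares 72 exon bases with Stat5a on the opposite strand.

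Upstream of STAT3, 5 of 11 gp130 ligands and receptors were tested and edgeR called 0 in any comparison. Between the viruses 0 had an unadjusted p under 0.05 at either day, against 10.4% of all genes at day 14 and 13.9% at day 7. The DESeq2 Wald test called Clcf1 between the days in the GFP pools (4.31% of all genes called), and voom called 0. Lif, Cntf, Il6, Il11, Osm and Il6ra did not pass the filter on low counts. Clcf1, a ligand of the CNTF receptor, had 32 pooled counts at Olig1 day 14 against 1 at GFP day 14. Il6st, which encodes gp130 itself, averaged 25.3 ± 19.6 CPM at Olig1 day 14 against 5.67 ± 3.68 CPM at GFP day 14 (adjusted p = 0.628). At day 7 Cntfr averaged 1.63 ± 2.63 CPM at Olig1 against 20.6 ± 18.0 CPM at GFP (adjusted p = 0.402), and Lifr 24.5 ± 24.0 CPM against 4.04 ± 4.82 CPM (adjusted p = 0.593).

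All 13 genes of the JAK, STAT and SOCS list were tested and edgeR called 0 in any comparison. Between the viruses 2 at day 14 (10.4% of all genes) and 0 at day 7 (13.9% of all) had an unadjusted p under 0.05. DESeq2 (3.52% to 7.69% of all genes called, by comparison) called Socs1 in 4 comparisons, the one at day 14 included, and voom called 0. Ptpn11, the phosphatase SHP2, averaged 49.8 ± 31.6 CPM at Olig1 day 14 against 7.38 ± 6.09 CPM at GFP day 14 (adjusted p = 0.438). Socs1, an inhibitor of JAK kinases, had 0 pooled counts at Olig1 day 14 against 152 at GFP day 14, at least 42.1-fold lower (adjusted p = 0.455), and 1 GFP library held all 152. At day 7 Tyk2, a JAK kinase, had 297 pooled counts at Olig1 against 3 at GFP (adjusted p = 0.430). Socs3, the inhibitor of STAT3 signalling, averaged 25.5 ± 30.0 CPM at Olig1 day 7 against 2.96 ± 1.87 CPM at GFP day 7 (log2 fold change 3.28 ± 2.27, adjusted p = 0.567).

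Myc (chr15:61985391-61990374) was counted in 2 of the 12 libraries and was not tested. Both were at Olig1 day 7: replicate 2 had 3 counts (0.239 CPM) and replicate 3 had 259 counts (17.5 CPM), and all other libraries had 0. The level therefore rests on 1 library, which also held 904 CPM of microglia and macrophage markers, a part that was not tested. GFP day 7 replicate 3, with 1073 CPM of those markers, had 0 Myc counts. Of 10 other genes of the Myc network 8 were tested, and edgeR, DESeq2 and voom called 0 in any comparison, with 0 at an unadjusted p under 0.05. Of all genes tested, edgeR called 0% to 0.654% and DESeq2 3.52% to 7.69%, by comparison, and 9.9% to 14.9% had an unadjusted p under 0.05 (edgeR). Mycn, the neuronal relative of Myc, averaged 12.2 ± 16.2 CPM at Olig1 day 14 against 2.67 ± 4.41 CPM at GFP day 14, and 4.14 ± 2.29 CPM at Olig1 day 7 against 0.137 ± 0.237 CPM at GFP day 7 (adjusted p = 0.947 and 0.416). At day 7 the groups did not overlap for 5 of the 8, with Olig1 above for Mycn and below for Max, Mxd4, Mxi1 and Mga. Over all genes tested the share was 18.4% (9.4% above and 9.01% below). Max, the dimer partner of MYC, averaged 14.2 ± 13.5 CPM at Olig1 day 14 against 3.23 ± 3.51 CPM at GFP day 14, and Mxd4, which competes with MYC for Max, 12.01 ± 15.3 CPM at Olig1 day 7 against 44.9 ± 11.3 CPM at GFP day 7 (adjusted p = 0.767 and 0.429).

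Set side by side, 8 of the 10 factors passed the filter on low counts. In Olig1 over GFP at day 14, edgeR called 0 of the 8, against 0.04% of all genes tested (0.02% higher and 0.02% lower), with 2 at an unadjusted p under 0.05 (10.4% of all) and 2 called by DESeq2 (4.96% of all). At day 7 edgeR called 0 of the 8, against 0.227% of all genes (0.14% higher and 0.0868% lower), with 2 at an unadjusted p under 0.05 (13.9% of all), 2 called by DESeq2 (6.37%) and 1 by voom (2.87%). Over the mean of both days it called 0 (0.654% of all, 0.38% higher and 0.274% lower), with 2 unadjusted (14.9%) and 1 by DESeq2 (7.69%). For the difference between the days of the Olig1 effect it called 0 (0% of all), with 1 unadjusted (9.9%) and 1 by DESeq2 (3.52%). Groups did not overlap for 2 of the factors at day 14 (Klf7 above, Sox11 below) against 11.9% of all genes (7.78% above and 4.12% below), and for 4 at day 7 (Sox11, Jun and Klf7 above, Sox4 below) against 18.4% of all genes (9.4% above and 9.01% below). Sox11 was the 1 factor with no overlap on both days in opposite directions, against 0.587% of all genes. At day 14 Sox11 was at most 0.941 CPM in any library, so that side rests on few counts. The median log2 fold change of the 8 was 1.30 at day 14 and 1.03 at day 7, beside 0.09 and -0.03 over all genes tested. Sox11 was the lowest of the 8 at day 14 by its fitted value and by its bound, so its size could not move that median.

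Between the days, the factors lay mostly lower at day 14. In the Olig1 pools edgeR called 1 of the 8 (Sox11, lower at day 14), against 0.0334% of all genes (0.0267% lower and 0.00667% higher). At an unadjusted p under 0.05 there were 3 (11.8% of all genes). DESeq2 and voom each called 2, Atf3 and Sox11, against 4.18% and 2.09% of all genes, and the groups did not overlap for 4 (Sox11, Atf3, Jun and Stat3, all below) against 16.1% of all genes (5.55% above and 10.6% below). In the GFP pools it called 0 (0% of all genes), with 1 at an unadjusted p under 0.05 (10.3% of all) and 0 by DESeq2 (4.31% of all), and the groups did not overlap for 3 (Sox4, Klf9 and Stat3, all below) against 14.4% of all genes (3.96% above and 10.5% below). The median log2 fold change of the 8 was -1.35 in the Olig1 pools and -1.83 in the GFP pools, beside -0.01 and -0.14 over all genes. All 8 fitted values were negative in the GFP pools, and 6 of 8 in the Olig1 pools, where Sox4 gave 0.88 ± 1.34 and Klf9 0.65 ± 1.02. Scaling by library totals in place of TMM moved the median of all genes by -0.20 in the Olig1 comparison and by -0.33 in the GFP one. The comparisons at one day and those within one virus share libraries, so their values are not independent of each other. Horizontal cell and rod markers lay higher at Olig1 day 14 than at Olig1 day 7, as given above, and their part was not tested.

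**Figure D3:**
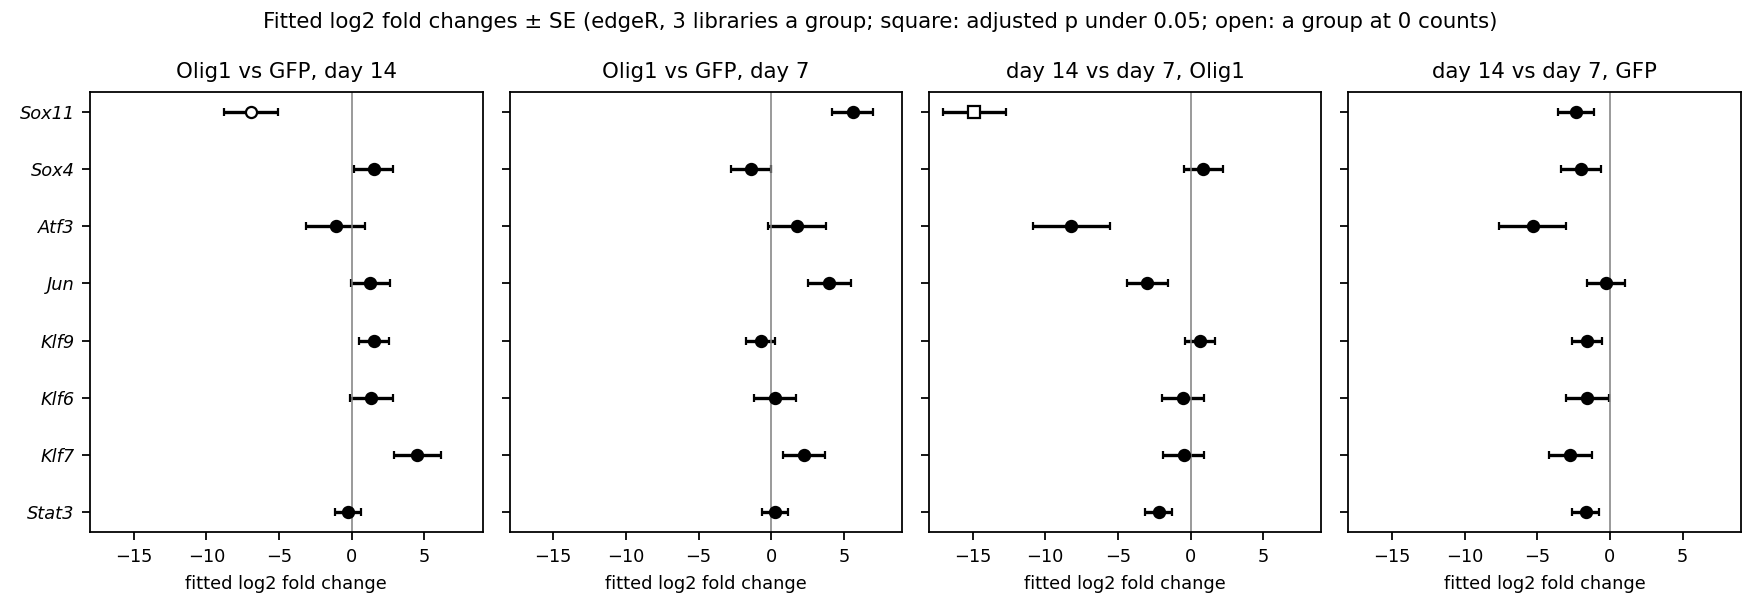
Fitted log2 fold changes ± SE of the 8 tested factors in 4 comparisons of 3 against 3 libraries (edgeR), with a square for an adjusted p under 0.05 and an open symbol where a group had 0 counts. Sox11 at day 14 against day 7 in the Olig1 pools is the only square, and Klf7 lies at 4.50 at day 14 and 2.24 at day 7 between the viruses. The 2 open symbols depend on the fit's prior count and are no measure of size.

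Per length, the order of the factors changed with group. At Olig1 day 14 the first were Klf6 with 20.3 ± 23.4, Klf9 with 19.6 ± 20.9 and Jun with 16.0 ± 7.77 TPM, and at GFP day 14 Klf9 with 6.96 ± 4.65, Klf6 with 5.78 ± 5.30 and Stat3 with 5.02 ± 3.47 TPM. At Olig1 day 7 Jun averaged 144 ± 61.5 TPM, Sox11 47.4 ± 30.3, Atf3 43.1 ± 27.7, Klf6 36.9 ± 27.1, Stat3 18.5 ± 14.2, Klf9 15.4 ± 10.5, Klf7 12.3 ± 13.6, Sox4 5.81 ± 3.62, Myc 4.62 ± 7.83 and Klf4 0.487 ± 0.761 (SD, n = 3). Jun stood above Sox11, while from Sox11 to Myc each step to the next was within the spread between libraries. At GFP day 7 the first were Klf6 with 31.1 ± 20.8, Klf9 with 28.5 ± 19.5, Stat3 with 22.3 ± 6.20 and Atf3 with 19.5 ± 26.3 TPM. Except for Jun and Sox11 at Olig1 day 7, neighbours in these orders did not differ beyond their spread.

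The genes most like each factor were found by the root mean square difference of log2(CPM + 1) profiles, centred on their means, over the 12 libraries, among 12457 named genes. For Sox11 they were Nrip3 (difference 1.18), Pcsk1 (1.25) and Egr4 (1.27), beside a spread of Sox11 itself of 2.90. For Jun they were Cacng2 (0.899), Kcnip3 (1.12) and Stmn3 (1.14), beside a spread of 2.26. For Atf3 they were Shank1 (0.963), Lrp1b (1.22) and Tirap (1.22), beside 2.36. Klf7 came closest to Mapk8ip1 (0.741), then to Nap1l2 (0.759) and Sytl2 (0.778), beside 1.90. The nearest genes were Gnpda1 (0.474), Dennd4c (0.519) and Nelfe (0.563) for Sox4, and Cdc27 (0.684), Bcl2 (0.687) and Pdk3 (0.703) for Klf6. For Klf9 they were Mdga2 (0.673), Ugdh (0.704) and Dlg3 (0.725), and for Stat3 P4hb (0.565), Arid1b (0.630) and Lztr1 (0.672). These are descriptions of 12 libraries that share groups and cell makeup.

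The list of injury-induced growth genes was the one in which calls between the viruses fell. Besides genes of injured neurons it holds Gfap, an astrocyte marker, and Timp1, Serpina3n and Lcn2, which are not particular to neurons. Of 22 genes 21 were tested. At day 7 edgeR called 1 higher, against 0.14% of all genes. It was Basp1, with 788 ± 412 CPM at Olig1 day 7 against 75.0 ± 35.9 CPM at GFP day 7 (log2 fold change 3.77 ± 0.72, adjusted p = 0.0466). BASP1 is a growth cone protein. Over the mean of both days 5 of the 21 rose, against 0.38% of all genes: Basp1 (2.49 ± 0.48, adjusted p = 0.0326), Stmn4 (2.84 ± 0.59, adjusted p = 0.0399), Sprr1a, Gal and Adcyap1 (adjusted p = 0.0334, 0.0336 and 0.0498). Stmn4, a tubulin-binding stathmin, averaged 34.0 ± 21.8 CPM at Olig1 day 14 against 14.5 ± 4.53 CPM at GFP day 14, and 118 ± 43.0 CPM at Olig1 day 7 against 6.87 ± 3.66 CPM at GFP day 7. Basp1 averaged 137 ± 43.6 CPM at Olig1 day 14 against 56.0 ± 12.8 CPM at GFP day 14. For both genes the Olig1 mean was above the GFP mean on each day. Leaving out any day 7 library but Olig1 day 7 replicate 3 ended the day 7 call of Basp1, as did DESeq2's size factors, a stricter filter, a fit of only the compared groups and leaving out the 4 libraries rich in microglia markers. Over both days the number called ranged from 0 to 5 with 1 library left out, and was 0 without GFP day 14 replicate 2, Olig1 day 7 replicate 2 or any GFP day 7 replicate. Of the 5, the stricter filter left Basp1 and Stmn4, and leaving out the 4 libraries rich in microglia markers left 0.

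For the other 3 the GFP pools were at or near 0. Gal, which encodes the neuropeptide galanin, had 4077 pooled counts at Olig1 day 14 against 0 at GFP day 14 (at least 1637-fold higher), and 597 at Olig1 day 7 against 0 at GFP day 7 (at least 236-fold higher). Sprr1a, an injury-induced gene of regenerating neurons, had 42 pooled counts against 0 at day 14 (at least 16.9-fold higher), and 4280 against 3 at day 7, a ratio of 1689 (95% counting interval 577 to 8192). Adcyap1, which encodes the neuropeptide PACAP, had 1058 against 0 at day 14 (at least 425-fold higher), and 1808 against 2 at day 7, a ratio of 1070.1 (296 to 8843). The counts were uneven: Gal at Olig1 day 14 ranged from 0.0485 to 162 CPM, and Adcyap1 from 0 to 42.8 CPM. At an unadjusted p under 0.05 there were 7 of the 21 at day 14 and 12 at day 7, against 10.4% and 13.9% of all genes. The median log2 fold change was 1.25 at day 14 and 3.77 at day 7. Ganglion cell markers summed to 102 to 2571 CPM at Olig1 day 14 against 33.2 to 58.1 CPM at GFP day 14, and to 1176 to 3057 CPM at Olig1 day 7 against 24.1 to 252 CPM at GFP day 7. The part of these, and of the day 7 differences in other cell markers above, in the changes of the growth genes was not tested. At day 14 alone edgeR and voom called 0 of the 21 and DESeq2 called 6 (Adcyap1, Ecel1, Gal, Sprr1a, Tead2 and Timp1), against 4.96% of all genes by DESeq2.

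Of 14 other injury transcription factors all were tested, and edgeR called 0 in any comparison. Between the viruses 2 at day 14 (10.4% of all genes) and 1 at day 7 (13.9% of all) had an unadjusted p under 0.05. Creb3, a membrane-bound factor of the stress response, averaged 28.3 ± 10.6 CPM at Olig1 day 14 against 92.4 ± 29.1 CPM at GFP day 14 (adjusted p = 0.455), and 197 ± 177 CPM at Olig1 day 7 against 45.5 ± 7.24 CPM at GFP day 7 (adjusted p = 0.203). Its groups did not overlap on either day, in opposite directions, and DESeq2 called it in 3 comparisons, day 7 included. DESeq2 also called Egr1, in 1 comparison, while over all genes it called 3.52% to 7.69%, by comparison.

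**Figure D4:**
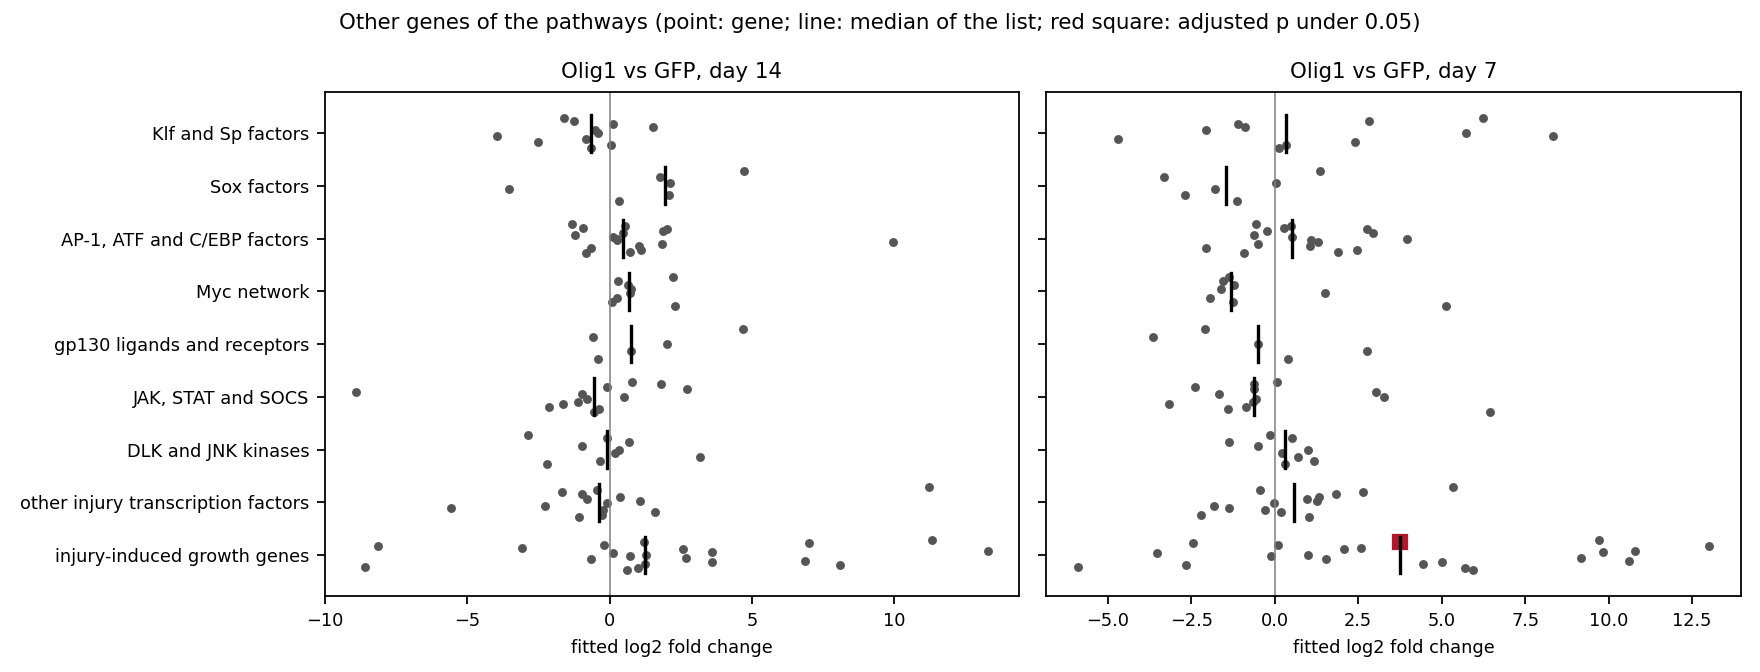
Fitted log2 fold change (Olig1 over GFP, edgeR) of 104 tested genes in 9 lists at day 14 and at day 7, with a point a gene, a line at the list's median and a red square for an adjusted p under 0.05. The injury-induced growth genes have medians of 1.25 at day 14 and 3.77 at day 7, and Basp1 is the 1 square.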

How the data were processed

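Polyadenylated RNA of 12 pools of picked cells was amplified with the SMART-Seq HT kit, per the labels' protocols. The deposited values were raw counts per Ensembl gene, made by the authors with FastQC, HISAT2 and HTSeq on mm10, per the submitters' processing notes. Their versions, the annotation and the strand handling are not stated there. The series table was used, because the sample files of 4 libraries ended early (270, 1193, 1452 and 2853 genes missing), and no gene present in both differed. The table held no rows without a gene. Symbols for 54165 of 54232 genes and exon lengths came from GENCODE M21. CPM used library totals (12534515 to 27602459 counts), and TPM used the union of exons.

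One edgeR 4.0.16 quasi-likelihood fit (R 4.3.3, two-sided, TMM, robust) of the 4 groups covered all 12 libraries and the 14985 genes left by filterByExpr with a minimum count of 10. The common biological coefficient of variation was 1.351, calls used a Benjamini-Hochberg adjusted p of 0.05 over all genes tested, and the code was tested on simulated data. The 6 comparisons were Olig1 over GFP (each day, and both days averaged), the difference between the days of that effect, and day 14 over day 7 in each arm. Folds against groups with 0 counts are given as bounds from 3 counts over the group, and counting intervals are 95% exact binomial. Both use pooled counts, cover counting error only and leave out the variation between libraries. Alternatives were library totals, DESeq2 1.42.0 size factors and Wald test, limma 3.58.1 voom with sample weights, other filters, a replicate block, fewer groups and left-out libraries. Figures used matplotlib 3.10.9.

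The factors, the lists, the alternatives and the tests were chosen with earlier results of these data known. Named genes are the 10 factors, called members of 9 lists (120 genes) or else the 2 with the smallest p between the viruses at that day, and the 3 genes nearest in profile to each factor averaging at least 1 CPM. Ddit3 had 2 identifiers, and the one with more exon bases was used. The labels speak of batches without assigning libraries to them, so batch and group cannot be told apart. Spike-in RNA was not analysed here, and 1 gene that the naming rule selects is not reported here.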

Additional observations from a re-analysis of the deposited data

Results flagged for a closer look

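Of the factors, 1 differed in its Olig1 effect between the days with all libraries moving apart in opposite directions, a pattern of 0.587% of all genes tested. Sox11 had 0 counts at Olig1 day 14 against 0.362 to 0.941 CPM at GFP day 14, and 51.0 to 251 CPM at Olig1 day 7 against 0.109 to 11.8 CPM at GFP day 7. At day 14 it was nearly absent in both arms, with 24, 10 and 18 counts in GFP day 14 replicates 1, 2 and 3. The day 14 side of the pattern therefore rests on few counts. The fitted difference of the effects, day 14 minus day 7, was -12.57 ± 2.32 (SE) on the log2 scale, with an unadjusted p of 0.000102 and an adjusted p of 0.341 (edgeR). The size depends on the fit's prior count, since a group was at 0, and the adjusted p ran from 5.35e-06 to 0.589 over the alternatives.

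In the related lists 3 genes did the same, and no adjusted p passed 0.05 in edgeR. Sox2, a factor of retinal progenitors and Müller glia, ranged from 34.6 to 39.3 CPM at Olig1 day 14 against 2.78 to 17.2 CPM at GFP day 14, and from 0.878 to 18.4 CPM at Olig1 day 7 against 41.6 to 94.6 CPM at GFP day 7. Its difference was 5.08 ± 1.57 (unadjusted p = 0.00536, adjusted p = 0.341, edgeR). Sox8, a glial SoxE factor, ranged from 15.4 to 22.4 CPM at Olig1 day 14 against 0 to 12.9 CPM at GFP day 14, and from 2.39 to 12.8 CPM at Olig1 day 7 against 40.1 to 83.0 CPM at GFP day 7, with a difference of 4.77 ± 2.12 (unadjusted p = 0.0396, adjusted p = 0.479, edgeR). Creb3 ranged from 18.7 to 39.7 CPM at Olig1 day 14 against 61.9 to 119.8 CPM at GFP day 14, and from 69.1 to 398.5 CPM at Olig1 day 7 against 38.6 to 53.1 CPM at GFP day 7, with a difference of -4.33 ± 1.09 (unadjusted p = 0.00111, adjusted p = 0.341, edgeR).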

How the results depend on the processing

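Precision was limited by 3 libraries a group with a coefficient of variation of 1.351, and the number of factors called depended on the tool and the libraries. At day 14, Olig1 over GFP, edgeR called 0, against 2 by DESeq2 (Klf7, Sox11), 1 with no filter (Sox11) and 2 without the 4 libraries rich in microglia markers (Jun, Klf6), where GFP day 14 replicate 1, with 0 counts of both, stands alone and is assumed to vary like the other groups. At day 7 the count was 0, against 2 by the DESeq2 Wald test (Jun, Sox11), 1 by voom (Jun), 1 with no filter (Sox11) and 1 without those microglia-rich libraries (Sox11). Over the mean of both days it was 0, against 1 by DESeq2 (Klf7) and 2 without the microglia-rich libraries (Jun, Klf6). For the difference between the days it was 0, against 1 (Sox11) by DESeq2, with no filter and without the microglia-rich libraries. For the days in the GFP pools it was 0, against 2 (Jun, Klf6) without the microglia-rich libraries. For the days in the Olig1 pools it was 1, against 2 by DESeq2 and by voom (Atf3, Sox11), and 0 with DESeq2's size factors, with a stricter filter, with the replicate block and with only the compared groups. With 1 library left out the count ran from 0 to 1 in this last comparison and was 0 in the others.

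The replicate numbers are not shown to pair libraries: same-numbered libraries correlated in their deviations at -0.0657 to 0.0441 over 18 pairs. Under the replicate block the Sox11 day difference in the Olig1 pools had an adjusted p of 0.0696, and of the 5 growth genes called over both days Basp1 was still called.

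Counts over all genes moved most with DESeq2. At day 14 they were 6 by edgeR, 743 by DESeq2, 55 by voom and 23 with no filter, with 2 under the stricter filter, 1 with the block, 0 with only the compared groups, 0 without GFP day 14 replicates 1 and 3, and 176 without the microglia-rich libraries. At day 7 they were 34, 954, 430 and 218 by the same 4. Over both days they were 98, 1153, 460 and 401, with 64 under the block, 43 without GFP day 14 replicates 1 and 3, and 349 without the microglia-rich libraries. For the difference between the days they were 0, 527 by DESeq2 and 40 with no filter, with 1 under the block, and with 2 and 127 without the same 2 sets of libraries. In the GFP pools they were 0, 646, 17 and 13, with 1 by library totals and 145 without the microglia-rich libraries. In the Olig1 pools they were 5, 626, 313 and 59, with 0 by DESeq2's size factors, 2 under the stricter filter, 0 with only the compared groups and 15 without the microglia-rich libraries. With 1 library left out they ran from 0 to 6 at day 14, 1 to 58 at day 7, 26 to 133 over both days, 0 to 1 for the difference between the days, 0 to 0 in the GFP pools and 0 to 10 in the Olig1 pools.

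Some fitted values turned sign, and the cause was not tested. With voom these were Stat3 at day 14 (0.11) and day 7 (-0.40), Klf9 at day 14 (-0.073), Sox11 (0.77), Klf9 (-0.34) and Stat3 (-0.15) over both days, Klf6 (-0.25) and Stat3 (0.51) in the difference between the days, and Klf9 in the Olig1 pools (-0.96). With library totals they were Stat3 at day 7 (-0.18) and over both days (-0.20). Stat3 over both days also turned with no filter (-0.020) and with the replicate block (-0.088). Without GFP day 14 replicates 1 and 3 they were Atf3 (4.65) and Stat3 (1.27) at day 14, and Atf3 (2.88) and Stat3 (1.02) in the difference between the days. GFP day 14 is then 1 library, with 0 Atf3 counts, so the Atf3 values measure no size. Without the microglia-rich libraries they were Klf6 (-0.20) and Klf9 (0.043) at day 7, Sox11 (0.56) and Stat3 (-0.12) over both days, Jun in the difference between the days (6.87, again against 1 library at 0 counts) and Sox11 in the GFP pools (0.089).

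With 1 library left out, signs turned within these ranges. At day 14 they were -5.82 to 0.86 for Atf3, -0.10 to 2.75 for Klf6 and -1.18 to 0.23 for Stat3, and at day 7 -0.20 to 0.71 for Klf6 and -1.22 to 0.69 for Stat3. Over both days they were -1.18 to 0.43 for Sox11, -0.24 to 0.94 for Sox4, -2.02 to 1.42 for Atf3, -0.27 to 0.72 for Klf9 and -0.72 to 0.24 for Stat3. In the difference between the days they were -3.55 to 0.52 for Jun, -0.35 to 2.47 for Klf6 and -1.45 to 1.01 for Stat3. In the GFP pools Jun ran from -3.49 to 0.57, and in the Olig1 pools Klf6 ran from -2.01 to 0.031, Klf7 from -1.21 to 0.46 and Klf9 from -0.73 to 1.21. Under the settings other than leaving out 1 library, 399 fitted values of the factors kept their direction and their side of the threshold, 20 newly passed it, 4 no longer did and 23 turned sign.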
